A study of Bos taurus with 2 samples.

Results

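Collagen genes were taken as every gene in the list of measured features whose symbol has the form of a collagen chain (COL, a type number, A and a chain number). The list of 21867 genes held 37 such symbols, and 34 of them were counted at least 1 time among the 16816 genes with a count. COL9A1, COL10A1 and COL20A1 were not counted in any cell, which allows a level of up to 1.06e-04 in 10000 counted molecules. By the structure of their product the 34 genes fall into 10 fibrillar collagens, 8 network-forming collagens, 5 collagens of type VI, 4 FACIT collagens (fibril-associated collagens with interrupted triple helices) and 7 others.

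Collagens are the main structural proteins of the extracellular matrix, and each is built from chains wound into a triple helix. Fibrillar collagens form the fibrils that carry tension in tendon and in the connective tissue around muscle fibres. Network collagens such as type IV make up basement membranes, and type VI forms beaded filaments next to the basement membrane of muscle fibres. FACIT collagens sit on the surface of fibrils.

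The cells were satellite cells, the resident stem cells of skeletal muscle, isolated by enzymatic digestion from the muscle of 1 Holstein calf aged 2 weeks and cultured for 1 week with no treatment. Messenger RNA was measured in single cells on the 10x Genomics platform, which marks captured molecules near their 3′ end with 1 barcode for the cell and 1 for the molecule, the unique molecular identifier (UMI). Both libraries, called replicates 1 and 2, were prepared from the same cells, so they differ by library preparation, and no other animal was measured. The isolate was not sorted and can hold other cells of muscle.

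Replicate 1 held 9939 cells with 145631299 UMIs and replicate 2 held 9157 cells with 137818568 UMIs, and 27 barcodes occurred in both. The cells form 15 clusters. Clusters 1, 2, 3 and 12 carry the name myoblasts here, clusters 4, 5 and 8 satellite cells, and clusters 7 and 9 fibro-adipogenic progenitors (FAP), with clusters 3 and 12 holding MYOG+ myocytes. The names are those the study inferred from marker genes, and the other clusters have none. In the files MYOG was highest in clusters 12 and 3, at 18.6 and 6.68 UMIs per 10000 UMIs, and PDGFRA in clusters 9 and 7. Of the other myocyte markers, MYH3 and MYMK were higher in cluster 7 (4.74 and 0.593) than in cluster 3 (1.27 and 0.343). MYL1 and STAC3 were not, at 0.156 and 0.421 in cluster 7 and 0.282 and 0.4375 in cluster 3. PAX7, a defining marker of satellite cells, was close to 0 in every cluster, at 0.0119 or less, and this top value was 1 UMI in cluster 13. The study named cluster 4 by enriched PAX7, and clusters 5 and 8 by enriched PAX3. PAX3 was also low, with its highest means in clusters 8 and 5, at 0.02803 and 0.02135 (47 and 53 UMIs). The depth differed between clusters, with medians of 1389, 1631, 2513.5, 647 and 5398.5 UMIs per cell in clusters 7, 13, 14, 15 and 10, and 12929 to 23011 in the rest. Of defining markers of other cell types, the glial genes FOXD3 and SOX10 were at 0. NOTCH3 of the pericyte markers was at 1.69 ± 0.117 in cluster 7 and 0.7925 or less elsewhere, while MCAM and RGS5 had 102 and 8 UMIs. Among endothelial markers PECAM1 had 45 UMIs, 32 of them in cluster 9, CDH5 had 28 and KDR 25. Among cartilage markers ACAN had 375 UMIs, with its highest level in cluster 7 (0.0994 ± 0.00137), SOX9 had 86 and COMP 122. Of the immune markers, PTPRC was counted 1 time, CD14 had 66 UMIs, 36 of them in cluster 9, and CD68 had 580, with a level of 0.148 ± 0.0587 in cluster 7 and 0.0380 or less elsewhere.

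A level below is the number of UMIs of a gene per 10000 UMIs of a cluster, as mean ± SD of the 2 libraries. A level counts molecules and is not divided by transcript length. Sums of UMIs per cluster and library were compared, as 2 sums against 2, with edgeR's quasi-likelihood test, and a gene was called at a Benjamini-Hochberg adjusted p under 0.05. A log2 fold change below is a difference after TMM normalization, which scales libraries by the bulk of their genes, and need not equal the ratio of the levels. Since these counts had also defined the clusters, a p-value here is not independent evidence, and it measures only the spread between these 2 libraries.

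Collagen genes took 1.29% of all UMIs in replicate 1 and 1.33% in replicate 2. Fibrillar collagens made up 97.1% of the collagen UMIs. COL1A2, a chain of type I collagen, the bulk collagen of tendon, bone and skin, had 1405511 UMIs, and COL1A1, its partner chain, had 943846. COL3A1, the chain of type III collagen in the meshwork around muscle fibres, had 988649 UMIs. These 3 genes held 89.9% of the collagen UMIs, and COL5A1, a chain of the type V collagen that starts and thins fibrils, followed with 217715. In all, 16 collagen genes reached 1000 UMIs. Another 18 were below it, and 9 of those were below 100.

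The level of all collagen genes together was 641 ± 6.04 in cluster 7, with 636.9 in replicate 1 and 645.5 in replicate 2. Cluster 8 followed with 264 ± 0.989. Next came cluster 4 with 171 ± 4.34 and cluster 5 with 167 ± 1.58, whose library values overlapped, and then cluster 1 with 159 ± 1.99. The lowest levels were 71.0 ± 1.31 in cluster 12 and 65.4 ± 7.91 in cluster 14, whose library values also overlapped. Clusters 2, 3, 9 and 15 lay between 85.1 and 90.9, where the values of cluster 15 overlapped those of the other 3.

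**Figure D1:**
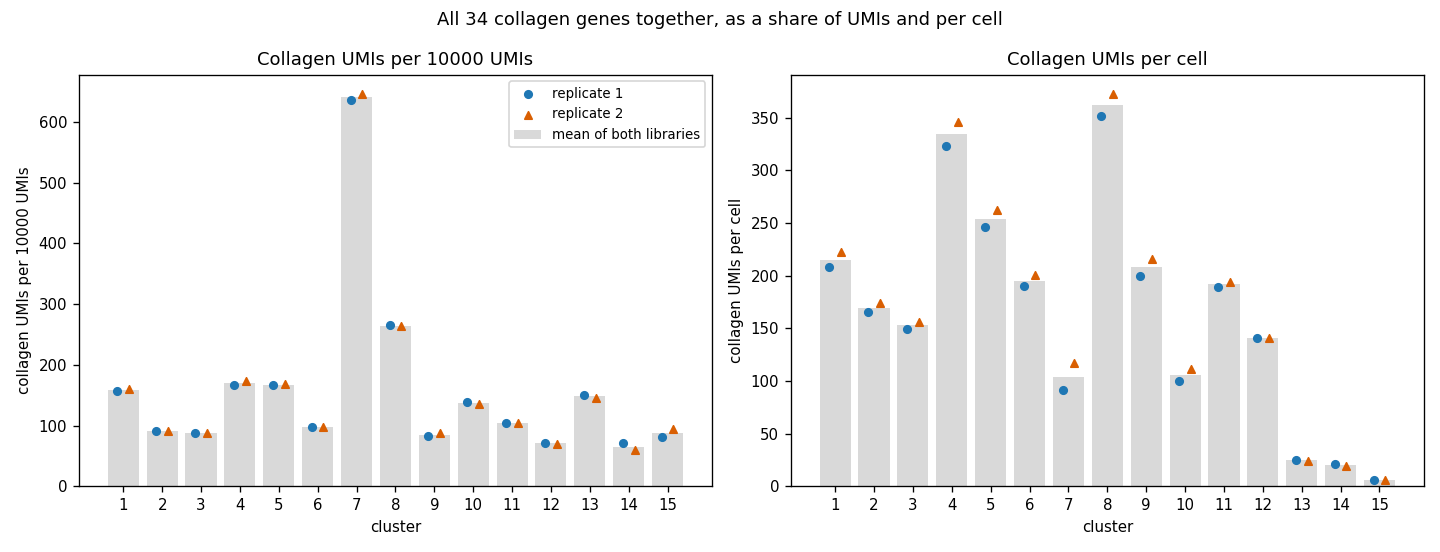
Collagen UMIs of all 34 genes by cluster, per 10000 UMIs (left) and per cell (right). Grey bars are the means of both libraries, circles are replicate 1 and triangles are replicate 2. Cluster 7 is highest as a share with 641, and cluster 8 is highest per cell with 362.

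Counted per cell, the order was another. Cluster 8 had 362 collagen UMIs per cell, cluster 4 had 335, cluster 5 had 254 and cluster 1 had 215. Cluster 7 had 105, fewer than cluster 12 with 141. Cells of cluster 7 held few molecules of any kind, and 23.7% of them reached 2000 UMIs, while ribosomal protein genes took 8.53% of its UMIs in replicate 1 and 8.41% in replicate 2 against 20.4% to 28.1% in the other clusters. The part of depth and of the ribosomal share in the high collagen share was not tested. The share was also taken by depth within the cluster. The median cell of cluster 7 had 5.98% of its UMIs in collagen genes, or 6.50% in its 990 cells under 2000 UMIs and 4.70% in its 308 cells at or above that number. In comparison, the median cells of clusters 8, 1, 9 and 12 had 2.58%, 1.48%, 0.729% and 0.607%.

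**Figure D2:**
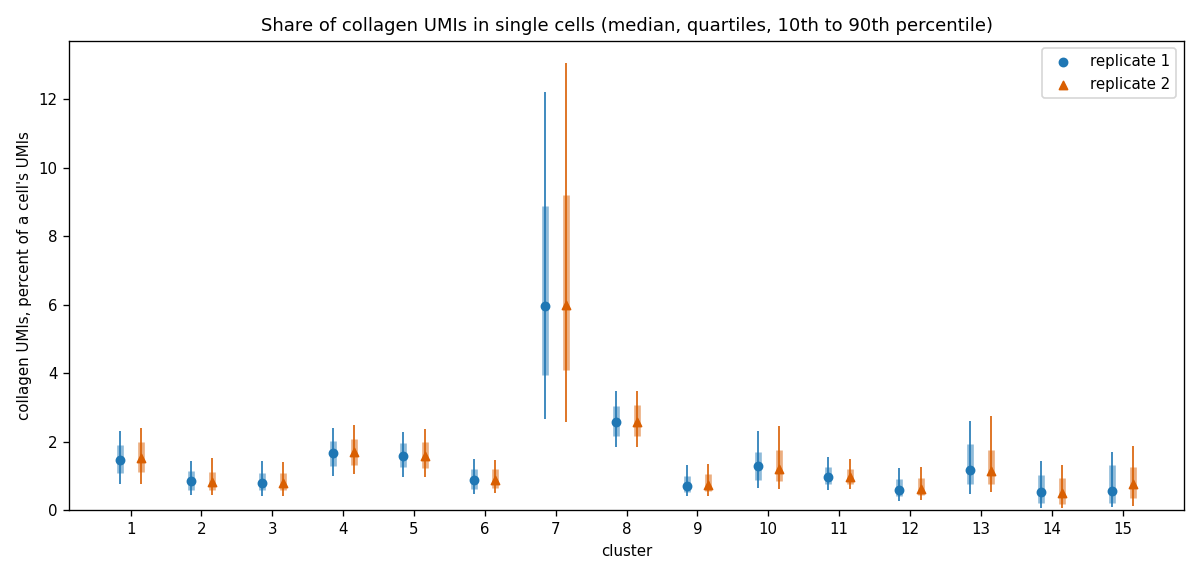
Collagen UMIs as a percent of each cell's UMIs, by cluster (x axis) and library (circles replicate 1, triangles replicate 2). Points are medians over cells, thick lines run from the 25th to the 75th percentile and thin lines from the 10th to the 90th. The median of cluster 7 is 5.96% in replicate 1 and 6.0% in replicate 2, above the 90th percentile of 3.50% and 3.48% in cluster 8.

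Each cluster was then compared with all other cells, which asks where each chain is enriched. Of the 34 genes, 26 or 27 passed the filter on low counts, and the 7 genes left out of all of these tests had 1 to 15 UMIs (COL4A3, COL4A4, COL4A6, COL9A3, COL11A2, COL26A1 and COL28A1). Over the 15 clusters, 93 pairs of collagen gene and cluster were higher and 123 were lower, where 14.9% and 17.1% of the pairs of all genes were called. The balance kept its direction without TMM, with 98 higher and 118 lower, and with DESeq2, another test, with 97 and 106. It was reversed with all 30 sums in 1 fit, in which the other clusters weigh equally, with 119 pairs higher and 80 lower. With clusters 7, 13, 14 and 15 left out of both sides, 71 pairs were higher and 96 were lower, against 71 and 109 for the same clusters when compared with all other cells.

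In cluster 7, 20 of 27 collagen genes tested were higher and 0 were lower, against 18.3% and 26.4% of all genes. The median log2 fold change of the collagen genes was 1.25, and that of all genes was −0.12. With cells under 2000 UMIs left out, 13 were higher and 0 were lower. In cluster 8, 15 were higher and 5 were lower, against 22.5% and 23.5% of all genes. In clusters 4 and 5, 10 each were higher, against 16.3% and 12% of all genes, and 2 and 4 were lower, against 15.3% and 12%. In several other clusters, among them both of myocytes, more collagen genes were lower than higher. In cluster 3, 3 were higher and 20 were lower, against 24.5% and 25.4%, and in cluster 12, 4 were higher and 16 were lower, against 24.8% and 29.5%. Cluster 6 had 0 higher and 16 lower, against 10.6% and 9.48%, and with all 30 sums in 1 fit it had 2 higher and 11 lower.

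Cluster 9 was divided, with 11 higher and 12 lower, against 25.3% and 27.7% of all genes. Cluster 1 had 8 higher and 7 lower (14.6% and 18.8% of all genes), and cluster 2 had 2 and 14 (15% and 16.8%). In cluster 10 there were 4 and 4 (16.7% and 21.9%), and in cluster 11 there were 4 and 9 (12.8% and 13.7%). Cluster 13 had 2 and 2 (5.98% and 11.3%). In cluster 14, 0 were higher and 10 were lower (3.73% and 4.07%), and in cluster 15 there were 0 and 2 (0.039% and 0.234%).

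**Figure D3:**
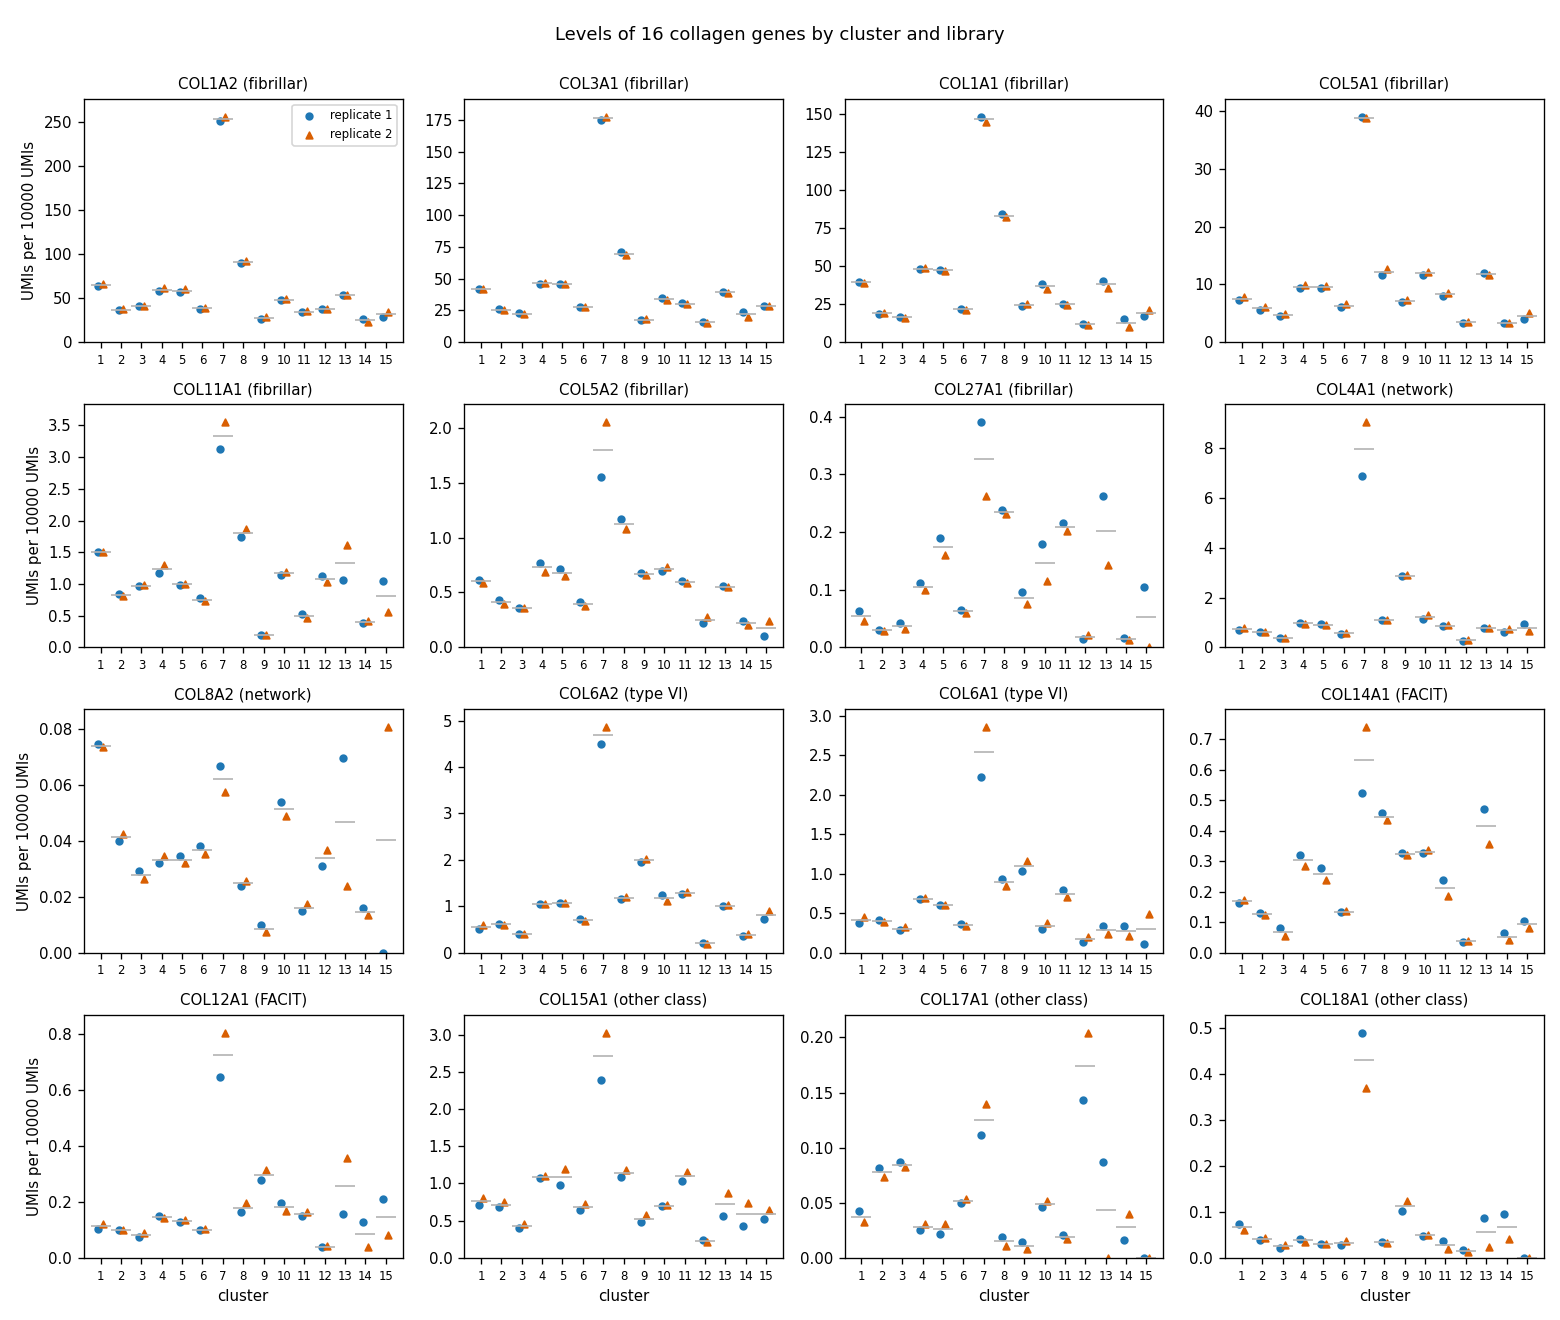
Levels of the 16 collagen genes with at least 1000 UMIs, in UMIs per 10000 UMIs, by cluster on the x axis. Circles are replicate 1, triangles replicate 2 and dashes their mean, and each panel has its own scale from 0. Cluster 7 is the highest mean in 14 of the 16 panels, while COL8A2 is highest in cluster 1 and COL17A1 in cluster 12.

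Among the fibrillar collagens, COL1A2 (ENSBTAG00000013472) had levels of 253 ± 3.10, 90.7 ± 1.76, 64.4 ± 1.58 and 27.1 ± 1.80 in clusters 7, 8, 1 and 9. Both libraries of cluster 7, at 251.1 and 255.5, lay far above both of cluster 8, at 89.47 and 91.96. COL1A2 was higher in clusters 1, 4, 5, 7 and 8 and lower in 8 others. COL1A1 was higher in the same 5 clusters, with levels of 147 ± 2.39, 83.2 ± 1.44 and 11.7 ± 0.757 in clusters 7, 8 and 12. COL3A1 was higher in those 5 clusters as well. Its levels in clusters 7, 8 and 12 were 176 ± 1.82, 69.8 ± 2.01 and 15.7 ± 0.577, and in cluster 12 it was lower. In cluster 7 the log2 fold changes of these 3 genes were 1.75 (COL1A2, SE 0.057, edgeR adjusted p = 4.08e-05), 1.53 (COL1A1) and 1.73 (COL3A1). In cluster 8 they were 1.00, 1.52 and 1.14.

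The minor fibrillar chains followed the same clusters in part. COL5A1 reached 38.9 ± 0.205 in cluster 7 and 12.1 ± 0.640 in cluster 8, close to 11.9 in cluster 10 with both libraries pooled. It was higher in clusters 4, 5, 7, 8, 10 and 13. COL5A2, the other common chain of type V collagen, reached 1.80 ± 0.354 and 1.13 ± 0.0665 in clusters 7 and 8. COL5A2 was higher in cluster 9 by a log2 fold change of 0.21, where COL5A1 was lower by −0.16. COL11A1, a chain of the type XI collagen of cartilage fibrils, was counted in every cluster, with 3.34 ± 0.303, 1.81 ± 0.0877 and 1.51 ± 0.00318 in clusters 7, 8 and 1. Its lowest level was in cluster 9, at 0.1902 and 0.2019 in the libraries, with a log2 fold change of −2.51 against all other cells (SE 0.057, edgeR adjusted p = 1.62e-06). COL27A1, a fibrillar collagen of cartilage and growing bone, was higher in clusters 5, 7, 8 and 11, with a level of 0.235 ± 0.00424 in cluster 8 and 0.0177 ± 0.00434 in cluster 12. With cells under 2000 UMIs left out, COL27A1 was no longer called in cluster 7 (log2 fold change 0.46, adjusted p = 0.413 from edgeR). COL5A3, a further type V chain with 591 UMIs, had 180 of them in cluster 1. It was higher in clusters 1, 7 and 8 and lower in clusters 2, 3, 6, 9 and 11. COL2A1, the main collagen of cartilage, had 78 UMIs and was called in cluster 3 alone, where it was lower.

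The basement membrane chain COL4A1 had its highest levels in both clusters of FAP. Its level was 7.97 ± 1.54 in cluster 7, with 6.881 and 9.056 in the libraries, and 2.89 ± 0.0212 in cluster 9, against 1.11 ± 0.00850 in cluster 8 and 0.278 ± 0.0137 in cluster 12. Cells of cluster 9 held the most COL4A1 molecules, with 7.05 UMIs per cell against 1.33 in cluster 7 and 1.91 in cluster 4. The log2 fold change against all other cells was 1.85 in cluster 9 (SE 0.048, edgeR adjusted p = 2.20e-06) and 2.47 in cluster 7 (SE 0.159, edgeR adjusted p = 1.43e-04). COL4A2, which lies next to COL4A1 in the RefSeq gene order and makes the other chain of the same molecule, had 618 UMIs against 27719 of COL4A1, and 182 of the 618 lay in cluster 9. It was higher in clusters 7 and 9, as was COL4A1. Whether the annotated 3′ end of COL4A2 limits its count was not tested. The remaining type IV chains had 7 to 125 UMIs, and COL4A5 was higher in cluster 8, which held 31 of its 125.

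Both type VIII chains, which form short hexagonal networks in vessel walls and the cornea, were rare and were called higher in different clusters. COL8A2 had a level of 0.0740 ± 7.73e-04 in cluster 1, where alone it was higher, and a level of 0.00862 ± 0.00175 in cluster 9, where it was lower by a log2 fold change of −2.18. COL8A1, with 335 UMIs in all, was higher in cluster 9 alone, at a level of 0.0378 ± 0.00824 and a log2 fold change of 2.03 (SE 0.24, edgeR adjusted p = 7.33e-04). In cluster 1 it was lower, with 20 UMIs. Neither chain was called in cluster 7, which held 8 UMIs of COL8A1 and 13 of COL8A2. As a share of UMIs, COL8A1 was about as high in cluster 7 as in cluster 9, though on these 8 UMIs only. The direct comparison of clusters 9 and 7 did not call COL8A1, so the call in cluster 9 does not set it apart from cluster 7. For COL8A2 cluster 7 was second, at 0.0615 with both libraries pooled.

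Type VI collagen, whose chains are mutated in Bethlem and Ullrich muscle disease, was also high as a share of UMIs in both clusters of FAP. Counted per cell, type VI collagen was highest in cluster 9, with 7.85 UMIs. Cluster 7 had 1.25 per cell, fewer than the 1.29 of cluster 3. COL6A2 had levels of 4.68 ± 0.248 and 1.99 ± 0.0363 in clusters 7 and 9, against 1.19 ± 0.0277 in cluster 8 and 0.198 ± 0.00702 in cluster 12. COL6A1, its neighbour in the genome, had 2.54 ± 0.449, 1.10 ± 0.0889 and 0.167 ± 0.0412 in clusters 7, 9 and 12. The library values of COL6A1 in clusters 8 and 9 did not overlap, at 0.8416 to 0.9367 and 1.033 to 1.159. In cluster 9 the log2 fold changes were 1.28 (COL6A2, SE 0.045, edgeR adjusted p = 6.03e-06) and 1.10 (COL6A1). COL6A3, the long chain of the type VI molecule, had 805 UMIs, with 347 of them in cluster 9 (log2 fold change 2.86) and 56 in cluster 7 (2.65), and it was higher in these 2 clusters only. COL6A5, a related chain, ran the other way in cluster 9, with 10 of 672 UMIs and a log2 fold change of −2.78, and it was higher in clusters 1, 2, 3 and 7. COL6A6 had 51 UMIs, of which 14 lay in cluster 12, where it was higher.

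Of the FACIT collagens, COL14A1, which binds fibrils through decorin, was higher in 7 clusters, with 0.631 ± 0.151 and 0.446 ± 0.0148 in clusters 7 and 8, and 0.0371 ± 0.00182 in cluster 12. COL12A1, a FACIT collagen of tendon and muscle fascia, was higher in clusters 7, 8 and 9, with levels of 0.725 ± 0.111, 0.179 ± 0.0226 and 0.296 ± 0.0245. In cluster 12 it was 0.0395 ± 0.00293. COL16A1 had 200 UMIs, 77 from cluster 9 and 15 from cluster 7, and it was higher in both. Replicate 2 held 134 of the 200.

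The remaining members tested were basement membrane and transmembrane collagens. COL15A1, of the basement membrane around muscle fibres and capillaries, was higher in clusters 4, 5, 7, 8 and 11 and lower in clusters 3, 9, 10 and 12. Its levels in clusters 7, 8, 9 and 12 were 2.71 ± 0.453, 1.13 ± 0.0632, 0.525 ± 0.0636 and 0.227 ± 0.0199. COL18A1, its close relative and the source of endostatin, was higher in clusters 1, 7 and 9, and had levels of 0.0668 ± 0.00847, 0.430 ± 0.0860 and 0.113 ± 0.0149. COL17A1, a transmembrane collagen best known from the anchoring of skin cells, was highest in the myocytes of cluster 12. Cluster 7 was second, at 0.128 with both libraries pooled, ahead of cluster 3. Its levels in clusters 12, 3, 1 and 9 were 0.174 ± 0.0434, 0.0844 ± 0.00315, 0.0375 ± 0.00707 and 0.0111 ± 0.00416, and it was higher in clusters 2, 3, 7 and 12. In cluster 7, which held 27 of its UMIs, it was not called with cells under 2000 UMIs left out (log2 fold change 0.67, adjusted p = 0.284 from edgeR). COL23A1, another transmembrane collagen, had 218 UMIs and was higher in clusters 3 and 12, with 58 and 30 UMIs. COL13A1, a transmembrane collagen of the neuromuscular junction, had 827 UMIs and was called in cluster 9 alone, where it was lower.

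The patterns over the clusters were compared as the correlation of log2 levels across the 15 clusters, which share libraries and differ in depth. The most alike pair of the 120 was COL6A2 and COL12A1, with r = 0.962, or 0.940 without cluster 7. COL1A2 was most like COL3A1 (r = 0.945), COL1A1 most like COL3A1 (0.944) and COL5A1 (0.941), and COL4A1 most like COL12A1 (0.940). Without cluster 7 the most alike pair was COL5A1 and COL14A1 (0.962), and COL4A1 was most like COL6A2 (0.889), ahead of COL12A1 (0.879). COL17A1 and COL6A2 had r = −0.225, or −0.657 without cluster 7.

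The comparison of cluster 12 with cluster 3 is between both clusters of MYOG+ myocytes. Of 20 collagen genes tested, 2 had higher and 9 had lower levels in cluster 12, where 18.2% and 15.6% of all genes were called. Lower were 4 fibrillar chains, COL4A1, both main type VI chains, COL12A1 and COL15A1. The median log2 fold change of the collagen genes was −0.41, against −0.02 for all genes. COL6A2 fell by 0.92 on the log2 scale (SE 0.088, edgeR adjusted p = 1.76e-04), COL12A1 fell by 0.95, COL15A1 fell by 0.84 and COL6A1 fell by 0.77. The fibrillar changes were smaller, with −0.43 for COL3A1, −0.39 for COL1A1, −0.36 for COL5A1 and −0.44 for COL5A2. The most abundant chain, COL1A2, had levels of 37.77 and 37.46 in cluster 12 and of 40.70 and 41.24 in cluster 3, a log2 fold change of −0.03 (SE 0.047, edgeR adjusted p = 0.709), and without TMM it was −0.12 and called. COL17A1 was higher by a log2 fold change of 1.14 and COL11A1 by 0.25. COL11A1 was not called without TMM (0.15, adjusted p = 0.0917 from edgeR) or with DESeq2 (0.27, adjusted p = 0.0579). With DESeq2, COL5A2, COL4A1 and COL12A1 were not called either (adjusted p = 0.0773, 0.186 and 0.0614), which left 6 lower. Without TMM, 1 was higher and 13 were lower. With the library as a block, COL27A1 (−0.95) and COL14A1 (−0.77) were also called lower.

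Cluster 3 was compared with cluster 1, myocytes with MYF5+ myoblasts. Of the 22 tested, 1 was higher and 16 were lower in cluster 3, where 21.1% and 19.1% of all genes were called, and the median log2 fold change was −0.68 against 0.00 for all genes. COL1A1 had levels of 16.75 and 16.06 in cluster 3 and of 39.55 and 39.16 in cluster 1, and its log2 fold change was −1.23 (SE 0.048, edgeR adjusted p = 1.10e-05). COL3A1 fell by 0.87, COL5A2 by 0.72, COL5A1 by 0.65, COL1A2 by 0.62 and COL11A1 by 0.59. Larger changes lay in rarer genes, with −2.05 for COL5A3, −1.40 for COL18A1, −1.38 for COL8A2 and −1.26 for COL14A1. COL4A1 fell by 0.95 and COL15A1 by 0.78, while COL6A2, COL6A1 and COL12A1 fell by 0.43, 0.40 and 0.43. COL12A1 was not called with DESeq2 (adjusted p = 0.186). COL17A1 was the 1 gene higher in cluster 3, by a log2 fold change of 1.21 (SE 0.17, edgeR adjusted p = 0.00148). COL27A1 had −0.53 and was called with the library as a block only.

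**Figure D4:**
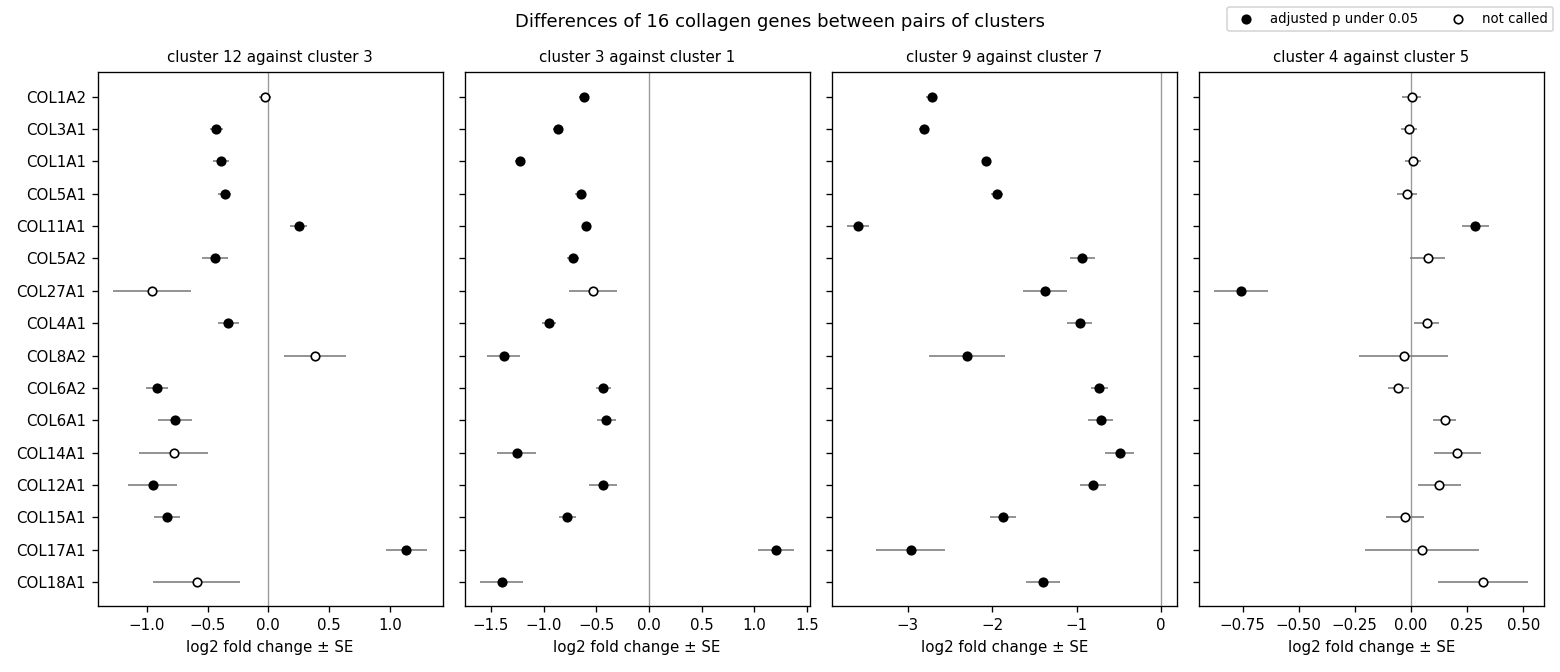
Log2 fold changes (x axis) of the 16 collagen genes with at least 1000 UMIs in 4 comparisons of clusters, with standard errors as bars. Filled points passed an adjusted p under 0.05 (edgeR) and open points did not. Most filled points lie left of 0 in the first 3 panels, with medians over all collagen genes tested of −0.41, −0.68 and −1.40, and around 0 in the fourth, at 0.06.

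Clusters 9 and 7 are both of FAP, and PDGFRA, the surface receptor that marks these cells, had levels of 1.58 ± 0.0744 and 1.48 ± 0.362 there. Of the 23 tested, 0 were higher and 19 were lower in cluster 9, where 29.9% and 26.6% of all genes were called. Counted per cell the order was the reverse, with 207 collagen UMIs in cluster 9 and 105 in cluster 7. The median cells of these clusters held 23011 and 1389 UMIs of all genes. The calls compare shares of UMIs, and the part of depth in them was not tested. All 8 fibrillar chains tested were lower, with log2 fold changes of −3.59 for COL11A1, −2.81 for COL3A1 (SE 0.058, edgeR adjusted p = 2.99e-06), −2.71 for COL1A2, −2.07 for COL1A1, −1.94 for COL5A1, −1.38 for COL27A1 and −0.93 for COL5A2, and −2.94 for the rare COL5A3. Among basement membrane chains the values were −0.96 for COL4A1, −1.87 for COL15A1 and −1.40 for COL18A1, and among type VI chains they were −0.73 for COL6A2 and −0.71 for COL6A1. COL17A1 had −2.96 and COL8A2 −2.29. COL12A1 had −0.81 and COL14A1 −0.49. COL4A2 (−0.93), COL6A3 (−0.49), COL16A1 (−0.74) and COL8A1 (0.51) did not pass the test. COL14A1 was not called with the library as a block or with no filter (adjusted p = 0.0541 and 0.0703 from edgeR), nor with DESeq2 (adjusted p = 0.0998). COL6A1 and COL27A1 were not called with cells under 2000 UMIs left out (adjusted p = 0.136 and 0.242 from edgeR). Cluster 7 also held 7.67 ± 0.610 UMIs per 10000 of 5 myocyte markers, against 0.466 ± 0.128 in cluster 9 and 9.01 ± 0.170 in cluster 3. Of 5 FAP markers cluster 7 held 15.3 ± 5.06, at 11.69 and 18.84 in the libraries, against 14.2 ± 0.284 in cluster 9. The sum of FAP markers did not set clusters 7 and 9 apart from the satellite cells. It was 21.0 ± 0.909 in cluster 8, 14.6 ± 0.39 in cluster 5 and 14.2 ± 0.394 in cluster 4. Over all cells DCN and LUM gave 197365 and 79503 of its 288546 UMIs. The part of mixed cell types in the differences between clusters 9 and 7 was not tested.

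Clusters 4 and 5, of satellite cells, were close. Of the 22 tested, 1 was higher and 1 was lower in cluster 4, where 9.16% and 7.28% of all genes were called. COL11A1 had levels of 1.173 and 1.304 in cluster 4 and of 0.9909 and 1.001 in cluster 5, a log2 fold change of 0.29 (SE 0.06, edgeR adjusted p = 0.0196). COL27A1 had levels of 0.1110 and 0.09978 against 0.1892 and 0.1600, a log2 fold change of −0.76 (SE 0.12, edgeR adjusted p = 0.00717). COL1A2, COL1A1, COL3A1 and COL5A1 had log2 fold changes of 0.00, 0.01, −0.01 and −0.02, with standard errors of 0.035 to 0.044. With the library as a block 4 genes were higher, among them COL6A1 (0.15) and COL14A1 (0.21).

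The ratio between chains also moved with the cluster, both for chains of the same molecule and for chains of types III and I. COL1A1 had 0.311 UMIs for each UMI of COL1A2 in cluster 12 and 0.401 in cluster 3, the myocytes, 0.611 in cluster 1, and 0.809, 0.812 and 0.919 in clusters 5, 4 and 8. In both clusters of FAP, 9 and 7, it was 0.908 and 0.578. In most clusters the libraries differed little beside this range, with 0.324 and 0.298 in cluster 12 and 0.942 and 0.894 in cluster 8. They differed most in the shallow cluster 14, at 0.577 and 0.428. COL3A1 to COL1A1 ran from 0.720 in cluster 9 to 1.77 in cluster 14. COL5A1 to COL5A2 lay between 10.6 in cluster 9 and 16.7 in cluster 10 in the clusters other than 7, 13 and 15. It was 21.1 in cluster 7, at 25.2 and 18.9 in the libraries. In clusters 13 and 15, with 55 and 4 UMIs of COL5A2, it was 21.53 and 25.25. With cells under 2000 UMIs left out it was 16.2 in cluster 7, inside the range from 10.6 to 16.7, and 21.96 in cluster 13.

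COL6A1 to COL6A2 lay between 0.498 and 0.846 in clusters 1 to 9, 11 and 12, while in cluster 10 it was 0.286, with 0.239 and 0.334 in the libraries. In the shallow clusters 13, 14 and 15, which held 29, 37 and 7 UMIs of COL6A1, it was 0.29, 0.712 and 0.389. COL6A3 to COL6A1 was 0.121 in cluster 9 and 0.102 in cluster 7, and 0.0130 to 0.0613 in the other clusters in which COL6A3 was counted. COL8A1 to COL8A2 was 4.39 in cluster 9, at 4.43 and 4.33 in the libraries, and 0.08 in cluster 1. With doublets left out it was 9.56 in cluster 9, which holds 23 UMIs of COL8A2 in all. COL4A1 to COL4A2 was 41.8 in cluster 9 and 43.0 in cluster 7.

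**Figure D5:**
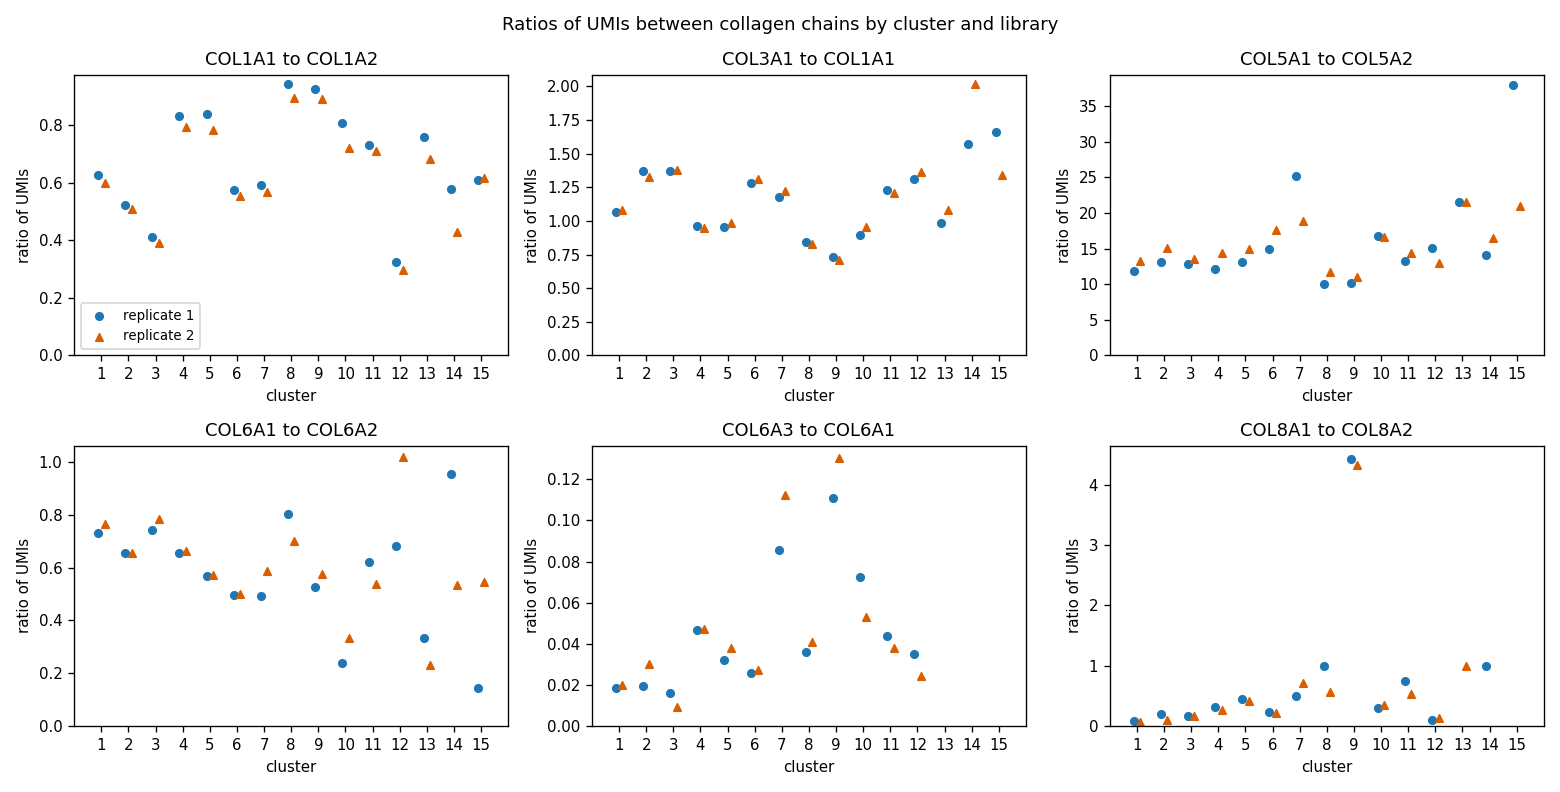
Ratios of UMIs between collagen chains (y axis, linear from 0) by cluster (x axis), with circles for replicate 1 and triangles for replicate 2. COL1A1 to COL1A2 is lowest in cluster 12 at 0.311, COL6A3 to COL6A1 is highest in clusters 9 and 7, and COL8A1 to COL8A2 is above 4 in cluster 9. A cluster without a point had no UMI of the first or of the second chain in that library.

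Genes that make, fold, cut and bind collagen were counted from a list of 47, in the same 4 comparisons. In cluster 12 against cluster 3, 4 of 38 genes tested were higher and 19 were lower, against 18.2% and 15.6% of all genes. The lowest were CREB3L1 (−1.43), a transcription factor of collagen secretion, PCOLCE2 (−0.94), an enhancer of propeptide cleavage, and FKBP14 (−0.73), a folding enzyme. The highest were TLL2 (0.83), grouped on this list with propeptide cleavage, TMEM38B (0.77), an ion channel of the endoplasmic reticulum, and P4HA3 (0.74), a prolyl hydroxylase. In cluster 3 against cluster 1, 2 of 40 were higher and 29 were lower, against 21.1% and 19.1% of all genes. Lower were 12 of 14 genes of hydroxylation and glycosylation and 3 of 4 crosslinking genes. CREB3L1 was again lowest at −1.35, followed by the crosslinking enzymes LOXL2 (−1.21) and LOX (−1.19), while TLL2 (0.51) and the collagen receptor DDR1 (0.39) were higher.

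In cluster 9 against cluster 7, 4 of 39 genes of the list were higher and 22 were lower, against 29.9% and 26.6% of all genes. DDR1 (−3.47), the propeptide-cleaving ADAMTS3 (−2.49) and P4HA3 (−2.48) were lowest, and PCOLCE2 (0.83), CREB3L1 (0.75) and the crosslinking LOXL1 (0.47) were highest. The levels of LOXL1 were 1.28 ± 0.0765 in cluster 9 and 1.30 ± 0.140 in cluster 7, so the sign of its fold change rests on the TMM scaling. The library values of PCOLCE2 overlapped, at 1.287 and 1.3 in cluster 9 and 0.680 and 1.329 in cluster 7. In cluster 4 against cluster 5, 0 of 40 were higher and 6 were lower, with the lowest at −0.50 for PCOLCE2, −0.33 for CREB3L1 and −0.32 for P4HA3. These 6 stood beside the 7.28% of all genes that were lower in this comparison.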

How the data were processed

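The deposited counts are whole numbers of UMIs per gene and cell. Per the labels and the study's methods, the authors used Cell Ranger 3.0.2 with the build ARS-UCD1.2 to align reads, count UMIs and call cells, and brought both libraries to equal mapped reads per cell. A second deposited table by the authors gives a scaled average UMI count per gene and cluster, with log2 fold changes and p-values of the authors' own comparisons, which were not used. The averages fixed the cluster of all 19096 cells, since sums over the deduced cells differed from them for 0 of 252240 pairs of gene and cluster. The number at the end of a barcode gave the library. Mitochondrial genes were not found by symbol.

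Sums of UMIs per library, for a cluster and for the cells compared with it, were tested with edgeR 4.0.16 (TMM, filterByExpr, quasi-likelihood test without a block) in R 4.3.3. The sums compared come from the same 2 libraries, which pairs them by library number. Log2 ratios of replicate 1 to replicate 2 in the sums compared had correlations of 0.167 to 0.669. On simulated counts with 200 genes changed 3-fold, the test recovered 91.5% in cluster 12 against cluster 3 (10616 genes), 93% in cluster 3 against cluster 1 (11230 genes), 75.5% in cluster 9 against cluster 7 (10304 genes), 92% in cluster 4 against cluster 5 (11186 genes), 60% in cluster 7 against all other cells (12810 genes) and 80% in cluster 9 against all other cells (12982 genes), and 9.77% to 19.1% of its calls there were false, above the 5% aimed at. Correlations of patterns used log2 of the level plus 0.01. Values are counts of molecules of 1 calf, and no interval for other animals can be given. Free RNA in the droplets was not measured.

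Scrublet, run in scanpy 1.11.5 with an expected rate of 0.08, marked 582 doublets (5.86%) in replicate 1 and 760 (8.30%) in replicate 2, which were kept. The alternatives were no TMM, DESeq2 1.42.0, no filter, the library as a block, doublets left out, cells under 2000 UMIs left out, all 30 sums in 1 fit and, added after the depth of the clusters was seen, 4 shallow clusters left out. Collagen genes with at least 1000 UMIs are named with values, and some values are also given for rarer ones. Of the list of 47 processing genes, 45 of them counted, up to 3 of the highest and 3 of the lowest called in each comparison are named. The members and lists were chosen with earlier results of these data known. All 34 symbols were found in RefSeq (ARS-UCD2.0), which was used for gene order only, and no sequence was used here.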

Additional observations from a re-analysis of the deposited data

How the results depend on the processing

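The paired fit with the library as a block moved 1 count by over 1.5 times, the collagen genes higher in cluster 4 against cluster 5, which was 4 with the block and 2 with doublets left out, against 1. The pairs lower against all other cells went from 123 to 80 with all 30 sums in 1 fit, and the genes higher in cluster 12 against cluster 3 from 2 to 1 without TMM and with DESeq2. The median log2 fold change in cluster 12 against cluster 3 (−0.41) was −0.51 without TMM, −0.39 with DESeq2, −0.35 with no filter, −0.47 with doublets left out, −0.36 with all 30 sums in 1 fit and −0.38 to −0.37 in single libraries. In cluster 3 against cluster 1 (−0.68) it was −0.73 with no filter and −0.68 to −0.62 in single libraries. In cluster 9 against cluster 7 (−1.40) it was −1.90 without TMM, where the median of all genes moved from 0.05 to −0.46, −1.75 with no filter, −1.80 with all 30 sums in 1 fit and −1.67 to −1.23 in single libraries. In cluster 4 against cluster 5 (0.06) it was 0.09 without TMM, 0.12 with no filter, 0.04 with all 30 sums in 1 fit and 0.08 to 0.10 in single libraries. Single libraries leave 1 sum against 1 and no test, so no count was made from them. In that comparison 4 uncalled values near 0 turned sign, namely COL1A2 (−0.03) and COL1A1 (−0.03) with all 30 sums in 1 fit, and COL3A1 (0.02 and 0.01) and COL5A1 (0.01 and 0.00) without TMM and with no filter. Of 575 recomputed fold changes of the genes with at least 1000 UMIs, 513 kept direction and call or moved by less than the spread between libraries. Another 14 gained a call, 11 lost it, 6 turned sign and 31 moved by more than that spread. Where no cause is given, the cause was not tested. Cluster 15 had 0 cells of 2000 UMIs or more and gave no value with shallow cells left out. Depth limits the 18 genes under 1000 UMIs and clusters 7, 13, 14 and 15.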

Other observations

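Between the libraries, the log2 ratio of replicate 1 to replicate 2 over all cells was −0.07 for COL1A2 and −0.01 for COL3A1. Over 12879 genes this ratio had an SD of 0.276. Among rarer members, COL13A1 had 347 UMIs in replicate 1 and 480 in replicate 2, and COL16A1 had 66 and 134. Of the mature adipocyte markers LEP had 0 UMIs, ADIPOQ 3 and PLIN1 140, and of the tendon markers SCX had 5, TNMD 3 and MKX 1090, while ACTA2 of smooth muscle and myofibroblasts had 190636. The summed level of ACTA2, CNN1 and MYH11 was highest in clusters 8 and 4, at 9.61 ± 0.219 and 8.855 ± 0.0755. It was 8.35 ± 0.426 in cluster 7 and 7.09 ± 0.314 in cluster 9, beside 7.66 ± 0.553 in cluster 12.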
